A study of Homo sapiens with 12 samples.

Results

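The genes described here are 180 single-exon genes outside the histone and small RNA families, out of 26364 gene symbols counted in the series. A gene was a member when the deposited annotation gave it 1 exon interval and its mean raw count over the 12 libraries was at least 50. Symbols of histone, small RNA, microRNA, antisense, uncharacterised-locus and zinc finger genes were dropped, together with a short list of immediate-early, heat shock and nuclear RNA genes. Of 3809 genes with 1 interval, 424 reached the count minimum, and 244 of these were dropped by symbol. The measured value that chose the members was thus their mean level over all libraries, which is not independent of the conditions: a gene that is low in some of them can reach the minimum through the others. Of the 180, 11 had a mean raw count under 50 over the 8 libraries without CPT and passed only through the 4 CPT libraries, and 6 had one under 50 with CPT and passed only through the libraries without it. *MTRNR2L1* (mean raw count 50.2), *MAGEE1* (51.5) and *USP27X* (51.9) lay just inside the minimum, whereas *CSNK2A3* (48.1), *ANXA2P2* (48.0) and *DSTNP2* (47.8) lay just outside it. The label holds for most but not all members, since *TERC*, the RNA component of telomerase, and *SNAR-G1*, a small non-coding RNA, pass the rule.

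RNA-seq was performed on total RNA of HCT116, a human colon cancer cell line. WT cells and a p65-deficient line were kept without inhibitor or given CPT, which inhibits TOP1, or ICRF193, which inhibits TOP2 (each at 5 µM for 2 h). They were harvested without TNFα (0 h) or after TNFα had been added at 20 ng/mL for 1 h, so that each of the 12 conditions has 1 library and none has a replicate. The study describes the inhibitors as a 2 h pre-treatment before TNFα, so that exposure to them may have been longer in the TNFα libraries. Its methods name both untreated and vehicle-treated cells, and the labels do not say which the libraries without inhibitor were. The p65-deficient line is a single-cell clone, clone 32, which the labels describe as shRNA p65 and the study's methods as a CRISPR-Cas9 line, so that loss of p65 and other differences of the clone cannot be told apart. Matched pairs of libraries stood in for replicates: 4 pairs for each inhibitor, 3 WT pairs for TNFα and 6 pairs for the cell lines.

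Most human genes carry introns, and an intronless transcript leaves the nucleus without being spliced. Many intronless genes encode transcription factors, G protein-coupled receptors or small signalling proteins, while others are retrocopies, made when the mRNA of a spliced gene was copied back into the genome. TOP1 relaxes the supercoils that build up around RNA polymerase, and CPT traps TOP1 on the DNA; gene span and position are therefore given beside the values.

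The libraries held 8101212 to 22051046 counted reads. The 4 shallow ones (8101212 to 8755001) were all p65-deficient, namely the ICRF193 library without TNFα and the 3 libraries with TNFα. Members took 0.546% to 0.577% of the counted reads in WT libraries and 0.597% to 0.630% in p65-deficient libraries. *RELA*, which encodes p65, had 694 to 909 normalized counts in the 6 WT libraries and 548 to 673 in the 6 p65-deficient libraries. A normalized count is the raw count divided by the library's size factor. All 7 epithelial markers had at least 72 reads in every library, whereas *PTPRC*, *CD3E*, *PECAM1*, *CDH5*, *COL1A2*, *DCN* and *ALB* had at most 4, *ITGAM* had 7 to 19 and *COL1A1* had 57 to 227.

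The members were short, with a median of 2693 bp and a range from 128 bp (*SNAR-G1*, chr19:49540277-49540404) to 10079 bp (*MGC27345*, chr7:127937738-127947816, hg19). After these, *TERC* (451 bp) and *SLC7A5P1* (615 bp) were shortest, and *PURB* (9093 bp) and *RAP2B* (8413 bp) were longest. Of the 180 members, 159 matched a symbol of GENCODE v29, where 132 had transcripts of 1 exon only, 21 had both kinds and 6 (*ZBED6*, *CHML*, *JRKL*, *SNHG10*, *OXLD1* and *TREX1*) had only transcripts with introns. The 21 include *GPX1*, *CLDN4*, *ID1*, *IMP3*, *EID1*, *CREBZF* and *OR51M1*. For the genes with transcripts that hold introns, 1 interval in the deposited annotation does not mean that every transcript is intronless. The span of 51 members overlapped that of another gene, and 26 shared exonic bases with one. The authors' counting ignored strand and left out reads that fell on more than 1 gene, so that reads from an overlapping gene, its introns included, cannot be told from the member's own. This limit applies to all 51, whether or not the overlap is stated where they are named. Members with an overlap that is not repeated below include *EID1*, *KBTBD7*, *CSTF2T*, *CHMP1B* and *AMIGO3*, which lie inside another gene. They also include *DDX28*, *RBM15B*, *TREX1*, *SNHG10*, *FOXD2*, *PURB*, *CEBPB*, *LCMT2*, *DOLK* and *TMED10P1*, which share exonic bases with one.

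Levels differed widely between members when set per kilobase of exon. *TERC* was highest, with a median of 9148 normalized counts per kb over the 12 libraries (8165 to 12628). It was followed by *GPX1*, a glutathione peroxidase that removes peroxides (median 2124 per kb), *SFN*, the 14-3-3 sigma protein of the G2 checkpoint (2113 per kb), and *ID1*, an inhibitor of DNA binding by helix-loop-helix factors (2024 per kb). *SF3B5*, a part of the U2 snRNP, came next (1778 per kb). The ranges of *GPX1* (2000.3 to 3373 per kb), *SFN* (1844 to 2914), *ID1* (1233 to 3987) and *SF3B5* (1354 to 2072) overlapped, so that their order does not exceed the spread between libraries, whereas every *TERC* value lay above them. The median member had 87.7 normalized counts per kb.

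CPT changed 101 of the 180 genes, in both directions. Of the 180 members, 51 were higher (28.3%) and 50 were lower (27.8%) with CPT at an adjusted p under 0.05, beside 23.1% and 24.8% of all 14573 genes tested. Among the 11308 genes tested that had a mean raw count of at least 50, as the members do, 20.7% were higher and 29.4% lower. The median log2 fold change was 0.03 over the members and 0.02 over all genes tested. The direction was the same in all 4 pairs for 48 of the 51 and for 48 of the 50. These counts include members that had to differ to pass the count minimum, namely 9 of the 51 and 5 of the 50. Among the 163 members with a mean raw count of at least 50 both with and without CPT, 42 were higher and 45 lower. More than 2-fold changes were found for 11 raised and 6 lowered members, and for 4 and 2 of those 163. For a member that reached the minimum through 1 group only, the levels, fold change and SE with CPT are a description without an adjusted p. Such members stay in the counts of members that passed or did not pass, also for the difference between the cell lines. In bulk RNA, a change in RNA per cell and a change in the share of cells that carry it cannot be told apart. Without replicates, the spread over pairs that differ in cell line and TNFα enters the error, and the standard errors of single genes can be smaller than the range of their pairs.

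The largest log2 fold change was that of *PKDREJ* (chr22:46651560-46659219), a polycystin family member known from the testis. It had 8.5, 4.9, 16.1 and 23.8 normalized counts without inhibitor (WT at 0 h and 1 h, then p65-deficient at 0 h and 1 h, the order used for all sets of 4 values) and 136, 147, 136 and 129 with CPT. Every library with CPT was far above every library without it (log2 fold change 3.52, SE 0.26), and its mean raw count was 14.0 without CPT and 153.5 with it. The levels with CPT lay within 129 to 147, whereas those without inhibitor were lower in WT than in p65-deficient cells. *HYMAI*, an imprinted non-coding transcript in the *PLAGL1* locus, went from 19, 19.5, 20.3 and 28.9 to 119, 99.2, 87.4 and 157 (log2 fold change 2.37, SE 0.15). It shares exonic bases with *PLAGL1*, whose own counts gave a log2 fold change of -0.09. *C9orf172* went from 26.9, 30.8, 27.4 and 25.5 to 87.2, 83.2, 109 and 80.3 (log2 fold change 1.69, SE 0.15), again without overlap of the groups. All 3 passed the count minimum only through the CPT libraries.

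**Figure D1:**
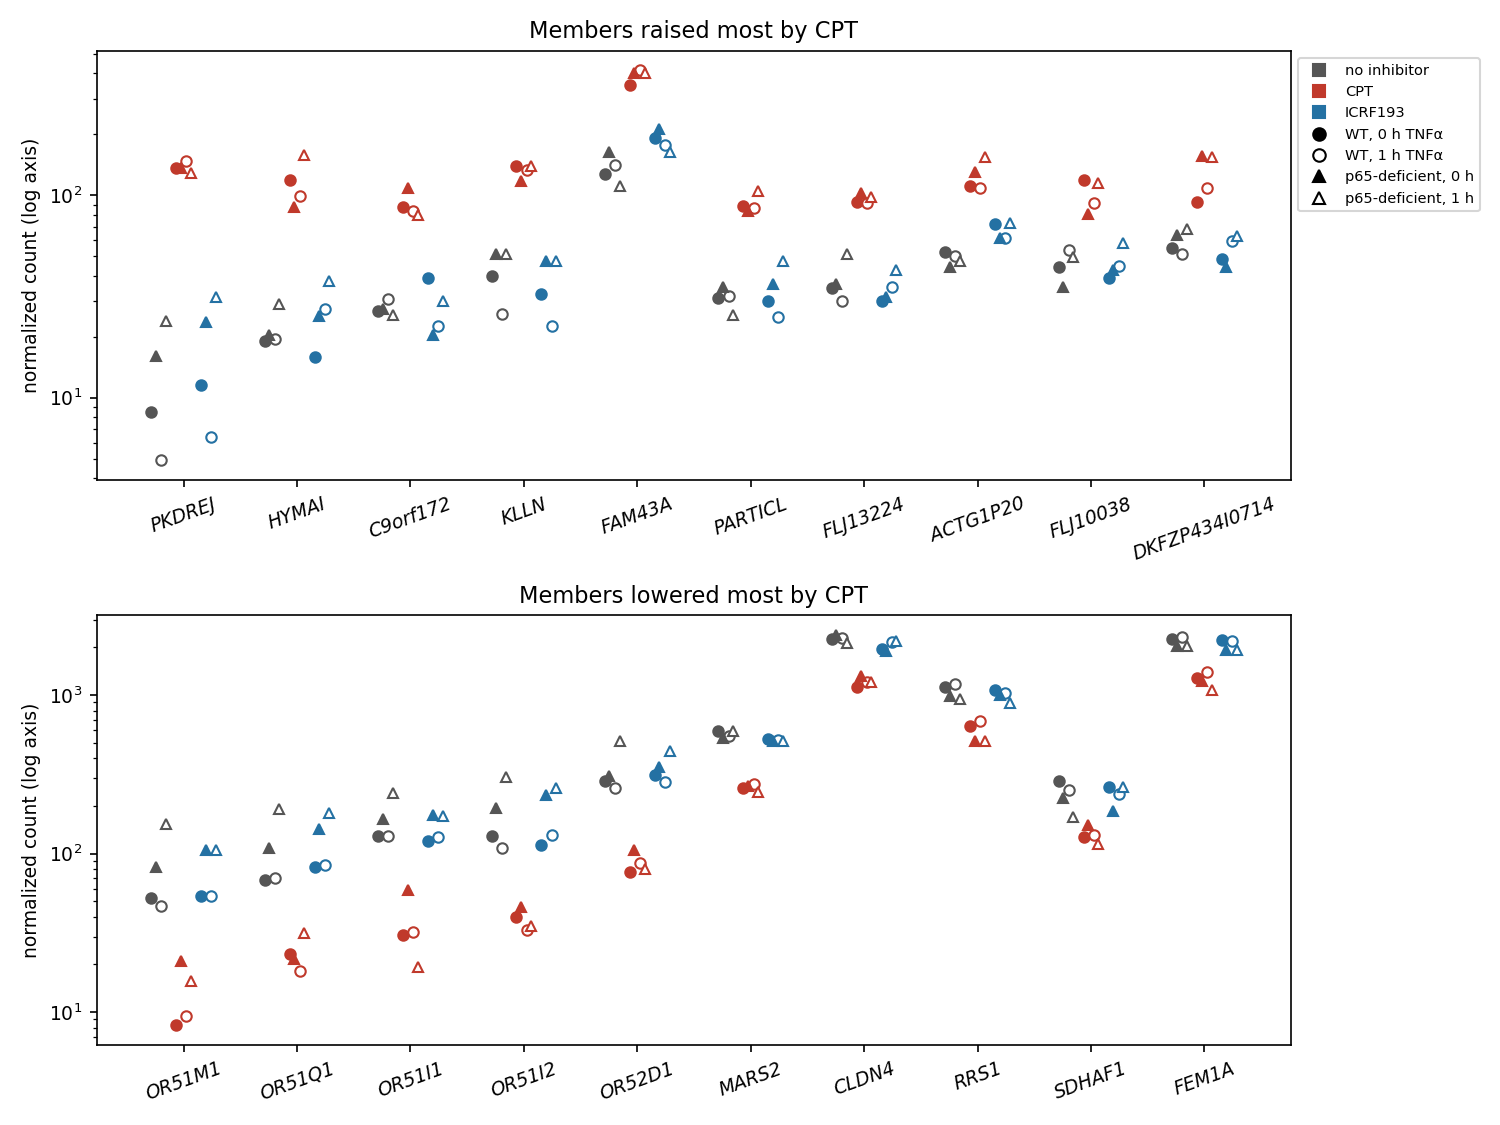
Normalized counts per library (log axis) of the 10 members raised most and the 10 lowered most by CPT; colour gives the inhibitor, shape the cell line, and filled or open points 0 h or 1 h TNFα, with 1 library per point. The red CPT points lie above the grey points of all 4 libraries without inhibitor for every raised member and below them for every lowered member. The members were chosen for large changes with 1 direction in all 4 pairs, and some reached the count minimum through 1 group only, so that this separation follows in part from the choice. The blue ICRF193 points mostly lie among the grey ones.

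*KLLN*, which encodes a DNA-binding protein of the p53 pathway, had 40, 26, 51.2 and 51 normalized counts without inhibitor and 139, 133, 118 and 139.7 with CPT (log2 fold change 1.67, SE 0.18). Some of the other members with higher levels lie close to another gene, whose value is given beside theirs. *PARTICL*, a long non-coding RNA that starts 92 bp from *MAT2A* on the other strand, went from 30.9, 31.7, 35.1 and 25.5 to 88, 86.8, 83.5 and 105 (log2 fold change 1.49, SE 0.16), whereas *MAT2A* gave a log2 fold change of -0.74. Both members were higher with CPT in each of the 4 pairs, and both passed the count minimum only through the CPT libraries. *DKFZP434I0714*, an uncharacterised transcript, lies 1023 bp from *FBXW7* on the opposite strand; it was raised (log2 fold change 1.06, SE 0.13, adjusted p = 4.8e-05) and *FBXW7* gave -0.97. 

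A further 3 members lie inside another gene near its start. Measured to the nearest edge of the member, *FLJ13224* is 280 bp into *FAM60A* on the opposite strand, *FLJ10038* 529 bp into *GABPB1* and *ACTG1P20*, a processed pseudogene of gamma actin, 1729 bp into *TMEM222*. *FLJ13224* had 34.8, 30, 36.5 and 51 normalized counts without inhibitor and 92.2, 91.9, 103 and 97.8 with CPT (log2 fold change 1.38, SE 0.15). *ACTG1P20* had 52.5, 50.3, 44.2 and 47.6 and 110.5, 109, 130.3 and 154 (log2 fold change 1.31, SE 0.14, adjusted p = 1.6e-05). *FLJ10038* had 44, 53.6, 35.1 and 49.3 and 119, 91.2, 81.2 and 115 (log2 fold change 1.14, SE 0.15). *FLJ13224* and *FLJ10038* passed the count minimum only through the CPT libraries, whereas *ACTG1P20* had at least 50 reads on average in both groups. The groups did not overlap for any of them, while the exonic counts of *FAM60A*, *GABPB1* and *TMEM222* gave log2 fold changes of -0.28, -0.56 and -0.20. Reads of *ACTG1P20* may also come from near-identical actin copies, so that its value is uncertain.

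*FAM43A* (chr3:194406622-194409766) was the one member that rose with both inhibitors, and it lies 13416 bp from its nearest neighbour with reads. Without inhibitor it had 127, 141, 164 and 110.5 normalized counts, with CPT 350.5, 414, 399.5 and 403 and with ICRF193 191, 177, 213 and 163. The CPT libraries were all above the others (log2 fold change 1.50, SE 0.10, adjusted p = 4.5e-07). The ICRF193 levels were above their own partner in each of the 4 pairs but overlapped the group without inhibitor, since the p65-deficient library at 0 h without inhibitor exceeded the one with ICRF193 at 1 h (log2 fold change 0.45, SE 0.09, adjusted p = 5.3e-04).

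The 250 bases before the start site are printed for 4 members on which the comparisons turn: *FAM43A* (raised by both inhibitors), *CLDN4* (lowered by both), and *RHOB* and *ID1* (the members that passed the test for TNFα). They are RefSeq sequences of GRCh38.p14, 5′ to 3′, at chr3:194685633-194685882, strand +, at chr7:73830746-73830995, strand +, at chr2:20446824-20447073, strand +, and at chr20:31605039-31605288, strand +. Capitals mark the letters CCAAT of the CCAAT box, the letters TATAAA of the TATA box and the letters GGGCGG of the GC box on either strand, and matches may overlap.
FAM43A: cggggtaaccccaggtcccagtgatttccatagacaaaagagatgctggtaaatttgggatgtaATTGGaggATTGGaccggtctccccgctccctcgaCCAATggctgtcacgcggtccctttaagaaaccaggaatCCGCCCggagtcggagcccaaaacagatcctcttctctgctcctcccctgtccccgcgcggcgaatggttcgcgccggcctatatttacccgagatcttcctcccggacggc
CLDN4: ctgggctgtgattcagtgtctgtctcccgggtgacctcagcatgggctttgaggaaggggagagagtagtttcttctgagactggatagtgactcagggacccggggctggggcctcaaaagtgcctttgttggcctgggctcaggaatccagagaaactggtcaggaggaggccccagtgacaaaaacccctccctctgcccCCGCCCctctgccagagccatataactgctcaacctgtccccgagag
RHOB: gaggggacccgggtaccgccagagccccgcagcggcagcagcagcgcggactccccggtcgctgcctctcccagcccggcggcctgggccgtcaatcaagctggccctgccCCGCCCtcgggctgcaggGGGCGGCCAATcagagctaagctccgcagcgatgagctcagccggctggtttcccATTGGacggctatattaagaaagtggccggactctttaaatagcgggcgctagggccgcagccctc
ID1: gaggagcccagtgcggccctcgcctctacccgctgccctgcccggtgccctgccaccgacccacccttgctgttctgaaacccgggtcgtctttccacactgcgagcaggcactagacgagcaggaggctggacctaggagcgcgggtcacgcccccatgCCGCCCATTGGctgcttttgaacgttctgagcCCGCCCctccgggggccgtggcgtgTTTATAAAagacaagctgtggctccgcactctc
*FAM43A* holds 3 CCAAT matches, *RHOB* 2, *ID1* 1 and *CLDN4* 0. *ID1* holds TATAAA in overlapping matches on both strands, and the other 3 windows hold none. Each window holds GGGCGG at least 1 time. Of 35116 windows of this length in the table, 32% hold the CCAAT letters, 10.7% the TATA box letters and 42.6% the GC box letters. Only 118 of the 180 members matched a promoter entry by symbol (65.6%), so that no share over the members is given. A match is a description of these letters and not a binding site.

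The largest decreases with CPT were those of 5 olfactory receptor genes on chromosome 11, *OR51M1*, *OR51Q1*, *OR51I1*, *OR51I2* and *OR52D1*. Olfactory receptors are G protein-coupled receptors best known from sensory neurons of the nose. *OR51M1* (chr11:5410607-5411664) had 52.5, 47.1, 82.1 and 155 normalized counts without inhibitor and 8.3, 9.5, 21.1 and 15.7 with CPT (log2 fold change -2.47, SE 0.22). *OR51Q1* (chr11:5443341-5444436) had 68.3, 69.8, 109 and 190.3 and 23.3, 18.2, 21.8 and 31.4 (log2 fold change -2.10, SE 0.18). *OR51I1* (chr11:5461772-5462783) had 130.0, 129.9, 165 and 241 and 30.7, 32.1, 59.3 and 19.2 (log2 fold change -2.10, SE 0.23). For each of these, every CPT library lay below every library without inhibitor. *OR51I2* had 129, 108, 195 and 302 and 39.9, 32.8, 46 and 34.9 (log2 fold change -2.09, SE 0.19). *OR52D1* had 286, 259, 309 and 513 and 76.4, 86.8, 106 and 80.3 (log2 fold change -1.87, SE 0.15, adjusted p = 2.1e-06). Of the 5, only *OR52D1* had a mean raw count of at least 50 in the CPT libraries; the other 4 had 14.8 to 43.0 and reached the minimum through the libraries without CPT.

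All 5 lie within the 164770-bp span of *OR51B5* (chr11:5362113-5526882), 4 of them on its opposite strand. The members *OR51B4* and *OR51B2*, which lie outside that span, had log2 fold changes of -0.23 and -0.27 and did not pass the test (adjusted p = 0.052 and 0.096). *OR51B4* had 242, 252, 245 and 229 normalized counts without inhibitor and 234, 208, 199.8 and 187 with CPT, so that its groups overlapped. *OR51B2* had 84, 91.7, 86.3 and 109 and 71.4, 81.7, 76.5 and 73.3, where the CPT levels were lower by less than 1.5-fold in every pair. The exonic count of *OR51B5* itself was 1690 to 1919 without inhibitor and 1790 to 1984 with CPT (log2 fold change 0.09, SE 0.06, adjusted p = 0.24). Ordered by distance from the start of *OR51B5*, the nested genes had log2 fold changes of -1.87 at 15904 bp, -2.09 at 51175 bp, -2.10 at 64099 bp, -2.10 at 82446 bp and -2.47 at 115218 bp, and neighbours in this order differed by less than the sum of their standard errors. Whether reads of unspliced *OR51B5* RNA enter these counts was not tested.

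**Figure D2:**
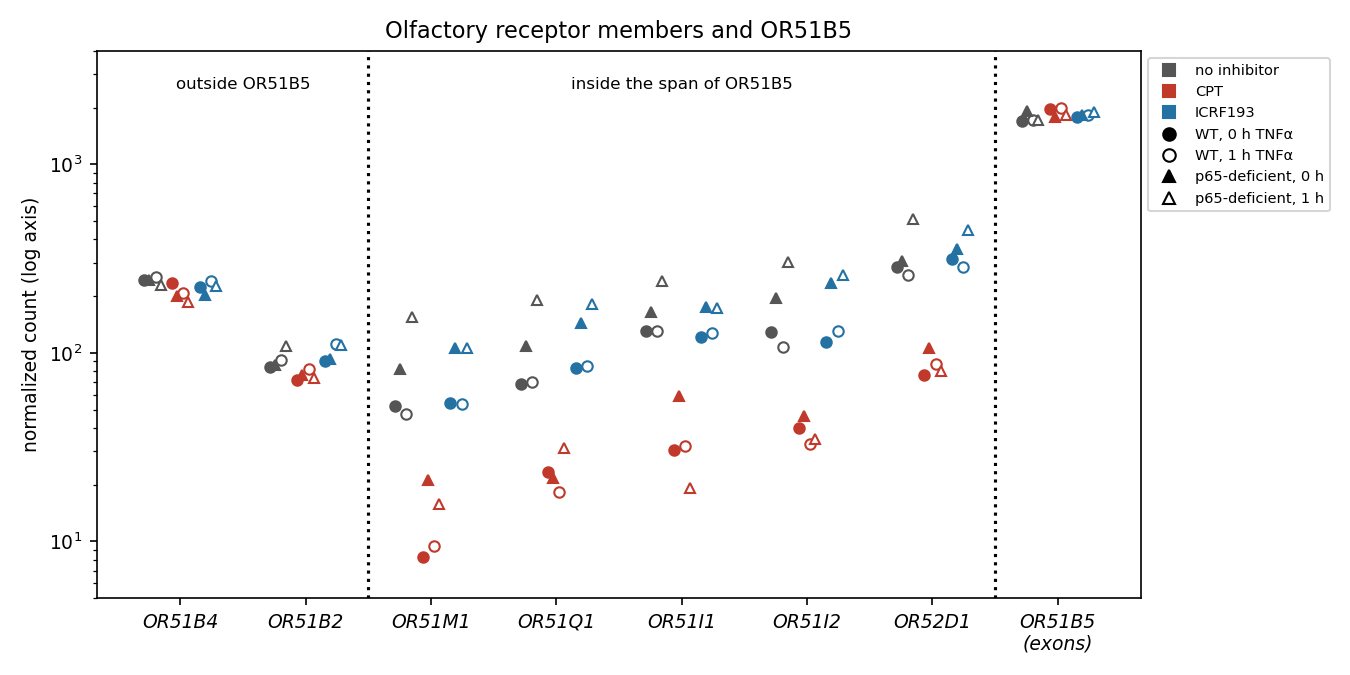
Normalized counts per library (log axis) of the 7 olfactory receptor members and of the exons of *OR51B5*; colour, shape and fill give inhibitor, cell line and TNFα time. The 5 members inside the span of *OR51B5* fall with CPT to between 8.3 and 106 normalized counts, whereas the 2 members outside it and the *OR51B5* exons move by far less.

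The other lowered members include metabolic, junctional and ribosome biogenesis genes. *MARS2*, the mitochondrial methionyl-tRNA synthetase (chr2:198570028-198573114), fell from 593, 550.4, 537 and 598 normalized counts to 258, 275, 266 and 246 (log2 fold change -1.12, SE 0.08, adjusted p = 6.1e-07). *CLDN4*, a claudin of epithelial tight junctions (chr7:73245193-73247023), fell from 2256, 2294, 2401 and 2126 to 1133, 1210.5, 1323 and 1207 (log2 fold change -0.91, SE 0.05, adjusted p = 6.1e-08). Their nearest neighbours with reads lie 201841 bp (*HSPE1*) and 1898 bp (*WBSCR27*) away. *RRS1*, a regulator of ribosome synthesis, fell from 1132, 1181, 985 and 948 to 642, 692, 517 and 517 (log2 fold change -0.86, SE 0.06, adjusted p = 5.3e-07). *FEM1A*, a substrate receptor of a cullin ubiquitin ligase, fell from 2253, 2343, 2057 and 2032 to 1281, 1391, 1237 and 1084 (log2 fold change -0.81, SE 0.05, adjusted p = 2.2e-07). *SDHAF1*, an assembly factor of succinate dehydrogenase, fell from 287, 253, 224 and 169.9 to 127, 131, 151 and 115 (log2 fold change -0.85, SE 0.12, adjusted p = 1.2e-04). For each of these 5 genes the groups did not overlap. The pairs of *CLDN4* ranged only from -0.99 to -0.82 on the log2 scale, whereas those of *SDHAF1* ranged from -1.17 to -0.56.

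Grouped by role, 42 members belong to 1 of 11 lists of intronless gene families and 138 to none. Beside the share of all genes raised (23.1%) and lowered (24.8%), 6 of the 15 members on the list of intronless transcription factors and co-regulators rose with CPT and 0 fell. These were *FOXC1* (0.44), *PURB* (0.42), *CEBPA* (0.41), *FOXD2* (0.31), *EID1* (0.24) and *TAF7* (0.19), all as log2 fold changes, and the list median was 0.12. The list does not hold every transcription factor or co-regulator gene among the members. Some outside it fell, such as *IRF2BPL* (-0.58), *CREBZF* (-0.44), *IRF2BP1* (-0.36) and *ID1* (-0.47), so that the count of 0 holds for the list alone. *CREBZF* and *ID1*, and *EID1* on the list, also have transcripts with introns in GENCODE v29. Of the 6 members on the list of nucleolar, tRNA and mitochondrial protein genes, 5 fell and 0 rose, with a list median of -0.67. Besides *MARS2* and *RRS1* these were *DDX28*, an RNA helicase of mitochondrial ribosome assembly (-0.69), *IMP3*, a U3 snoRNP protein (-0.64), and *THAP11*, a zinc finger transcription factor that lies inside *CENPT* (-0.33). Without *THAP11*, whose role differs from the name of the list, 4 of 5 fell and the median was -0.69. *RPP25*, a subunit of RNase P, did not pass the test (log2 fold change -0.07, adjusted p = 0.67).

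Of 3 Frizzled receptors, which bind Wnt ligands, *FZD1* (0.66) and *FZD7* (0.40) rose, and *FZD2* had a log2 fold change of -0.17 (adjusted p = 0.17). Both nucleosome assembly proteins of the TSPY-like family rose, *TSPYL4* by 0.79 and *TSPYL1* by 0.17. Among the small GTPases, *RHOB*, which acts on endosomes, rose (0.49), and *RAP2B*, a Ras-related protein, fell (-0.32). Of 3 BTB and kelch genes, *KCTD11* rose (0.61) and *KBTBD7* (-0.52) and *KBTBD6* (-0.30) fell. Of 3 claudins only *CLDN4* passed, while *CLDN3* had a log2 fold change of -0.19 and *CLDN23* of -0.26. *CLDN23* reached the count minimum only through the libraries without CPT. Of the 3 other G protein-coupled receptors listed (*ADRA2C*, *HTR1D*, *MC1R*), the 3 members on the list of retrocopies (*EIF5AL1*, *CSTF2T*, *CHMP1B*) and *MTRNR2L1*, none passed in edgeR's quasi-likelihood test, and their log2 fold changes lay between -0.18 and 0.42. That list does not hold every retrocopy, and those outside it went both ways. For example, *ACTG1P20*, described above, and *WDR5B* (0.53, adjusted p = 0.016) were higher with CPT. *MCTS2P*, which lies inside *HM13*, was lower (-0.38, adjusted p = 0.014). *PDIA3P1* (0.23), *DPH3P1* (0.09) and *TMED10P1* (0.36) did not pass. None of the 20 beta protocadherins listed was a member.

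Among the most abundant members, *GPX1* rose from 2366, 2491, 2739 and 2508 to 3139.8, 3309.7, 3990.4 and 3634 normalized counts (log2 fold change 0.46, SE 0.04, adjusted p = 5.7e-06) and *TERC* from 4114, 4042, 4331 and 4053 to 4833, 5081, 5695 and 4888 (log2 fold change 0.30, SE 0.04, adjusted p = 1.5e-04). Both changes were below 1.5-fold, yet every CPT library was above every library without inhibitor. Of the longest members, *PURB* rose, and *MGC27345* fell (log2 fold change -0.46, SE 0.09, adjusted p = 0.0012). Among those at the count minimum, *USP27X* had a log2 fold change of -0.58 and reached the minimum only through the libraries without CPT. *MAGEE1* and *MTRNR2L1* had log2 fold changes of 0.16 and 0.42 and reached it only through the CPT libraries. *SNAR-G1* (0.09) and *SLC7A5P1* (-0.34) did not pass the test.

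Set beside other genes above the same count minimum of 50, the members were spread to both sides rather than shifted. The 10th and 90th percentiles of their CPT log2 fold changes were -0.62 and 0.62, and 55.6% were above 0. The 862 multi-exon genes with a span of up to 5 kb had a median of 0.22, with percentiles of -0.36 and 0.48, and 76.2% were above 0. Of these, 52.7% were raised and 11.8% lowered, against 28.3% and 27.8% of the members. In multi-exon genes the median was 0.07 for spans over 5 kb to 20 kb, -0.04 for spans over 20 kb to 100 kb and -0.12 for spans over 100 kb. The 244 single-exon genes dropped by symbol had a median of 0.10 with a 10th percentile of -3.29. With only the 129 members that overlap no other gene, the median was 0.01, 33 were raised and 35 lowered, more than 2-fold increases went from 11 members to 6 and more than 2-fold decreases from 6 members to 1. These are descriptions of the gene classes and no test was made between them.

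**Figure D3:**
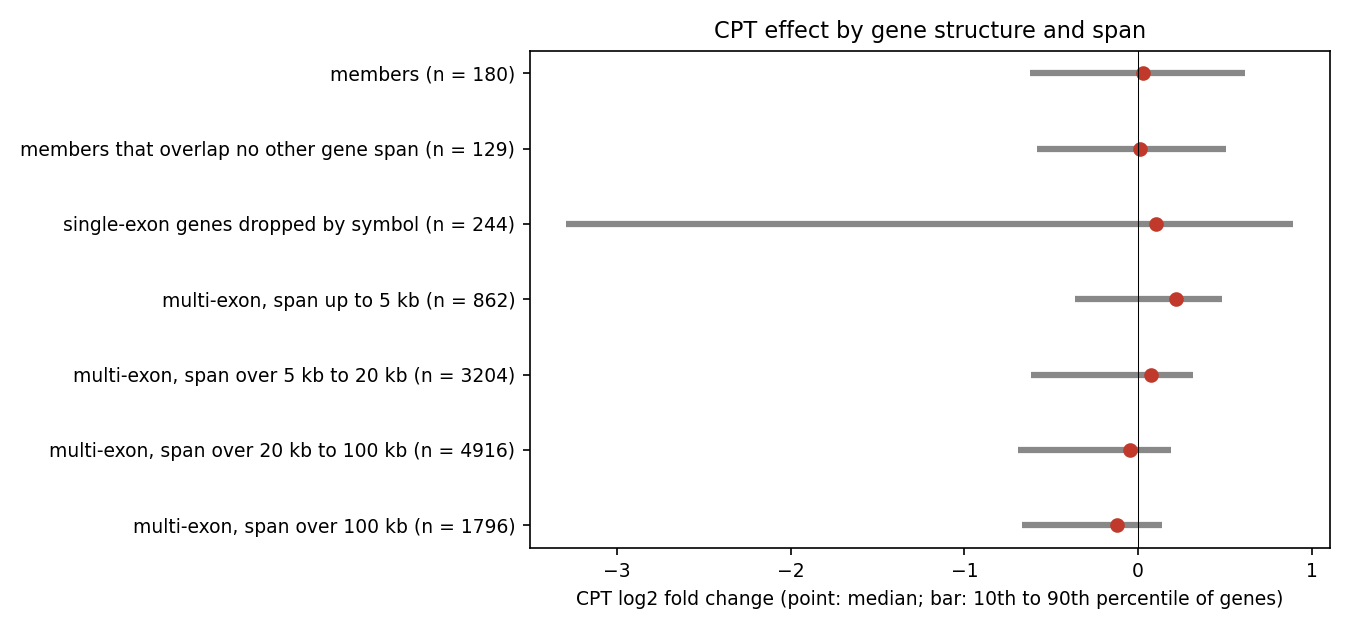
CPT log2 fold change by gene class, with the median as a point and the 10th to 90th percentile of the genes as a bar; all classes are held to the same count minimum of 50. The members centre on 0.03 with a bar from -0.62 to 0.62, while the medians of multi-exon genes go from 0.22 at spans of up to 5 kb to -0.12 at spans over 100 kb.

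Within the members, span and the CPT effect were related weakly and in the opposite direction to multi-exon genes. Across the 180 members, Spearman's rho of span with the log2 fold change was 0.18, and across 10778 multi-exon genes it was -0.31. These values cover unlike ranges, since the longest member has 10079 bp and 1796 of the multi-exon genes span over 100 kb. No value was computed for multi-exon genes within the range of the members. Genes share libraries and are not independent replicates. Of the 60 longest members (3251 to 10079 bp), 22 were raised and 12 lowered, and of the 60 shortest (128 to 2085 bp), 11 were raised and 18 lowered. The correlation of the CPT effect with the mean count was -0.20 across the members.

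Position relative to other genes was examined after the values had been seen. Of 30 members inside a multi-exon gene, 17 lie on its opposite strand. For 5 of them, the nearest edge of the member, which need not be its own start, lies within 2 kb of the start of the surrounding gene. Of these, 4 were raised, with *PPAPDC2* (0.95, inside *SPATA6L*) beside the 3 named above, of which *FLJ13224* and *FLJ10038* had to differ to pass the count minimum. *ZBED6*, inside *ZC3H11A*, was lowered (-0.36). Of the 20 members deeper inside a gene other than *OR51B5*, 4 were raised and 7 lowered, with a median of 0.10. For 35 members that start within 1 kb of a gene on the other strand and lie inside none, 13 were raised and 9 lowered (median 0.09). For the remaining 115, 30 were raised and 28 lowered (median 0.02). Members that had to differ to pass the count minimum are in these counts as well. They were *HYMAI* and *ACTL10* among those raised deeper inside a gene, and *PKDREJ* and *C9orf172* among those raised of the 115. Of the 35, they were *KLLN*, *PARTICL* and *HTR7P1*, raised, and *USP27X*, lowered.

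ICRF193 changed few members and by little. Of the 180, 1 was higher and 9 were lower, beside 0.574% and 1.58% of all 14101 genes tested. The member raised was *FAM43A*, described above. The lowered members were the transcription factor genes *CEBPD* (log2 fold change -0.40, SE 0.09, adjusted p = 0.0031) and *FOXC1* (-0.24), the co-regulator *IER5L* (-0.14), *ID1* (-0.19), the secreted protein gene *FJX1* (-0.27), *CLDN4* (-0.14), the RNA-binding protein gene *RBM15B* (-0.13), *TMEM185B* (-0.19) and *ATXN7L3B* (-0.17). *CEBPD* had 160.2, 249, 175 and 159.7 normalized counts without inhibitor and 140.5, 166, 131 and 123 with ICRF193. It was lower in every pair, although the groups overlapped. *FJX1* had 416, 473, 455 and 416 and 388, 368, 344 and 352 (log2 fold change -0.27, SE 0.06, adjusted p = 0.0053), and *FOXC1* had 538, 478, 485 and 464 and 446, 406, 449.7 and 360.1 (adjusted p = 0.01). *TMEM185B* had 547, 549.6, 570.4 and 539 and 486, 471, 492 and 494 (log2 fold change -0.19, SE 0.05, adjusted p = 0.047). The groups of these last 3 genes did not overlap. None of these decreases reached 1.5-fold.

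These calls depend on the fit. With the pair term dropped, no member passed edgeR's test (11 at an unadjusted p under 0.05), and with all 12 libraries in 1 fit none passed (16 unadjusted), while DESeq2 called 1 member lower and none higher (16 unadjusted). Without the WT pair at 1 h, 1 member was called lower, and without the WT pair at 0 h, 4.

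Both inhibitors were compared with the same libraries without inhibitor, so that their values are given side by side only. Of the 10 members that passed with ICRF193, 6 passed with CPT too. *FAM43A* was higher with both. *CLDN4*, *FJX1* and *ID1* were lower with both, with CPT log2 fold changes of -0.91, -0.33 and -0.47. For *ID1* the CPT log2 ratios were -0.52 and 0.31 in the WT pairs at 0 h and 1 h and -0.85 and -0.77 in the p65-deficient pairs, so that the WT pair at 1 h went the other way. *FOXC1* (0.44) and *RBM15B* (0.14) were higher with CPT and lower with ICRF193. *CEBPD*, *IER5L*, *TMEM185B* and *ATXN7L3B* did not pass with CPT. The olfactory receptor members had ICRF193 levels within or near the range without inhibitor, for example 53.9, 53.8, 106 and 106 for *OR51M1*.

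**Figure D4:**
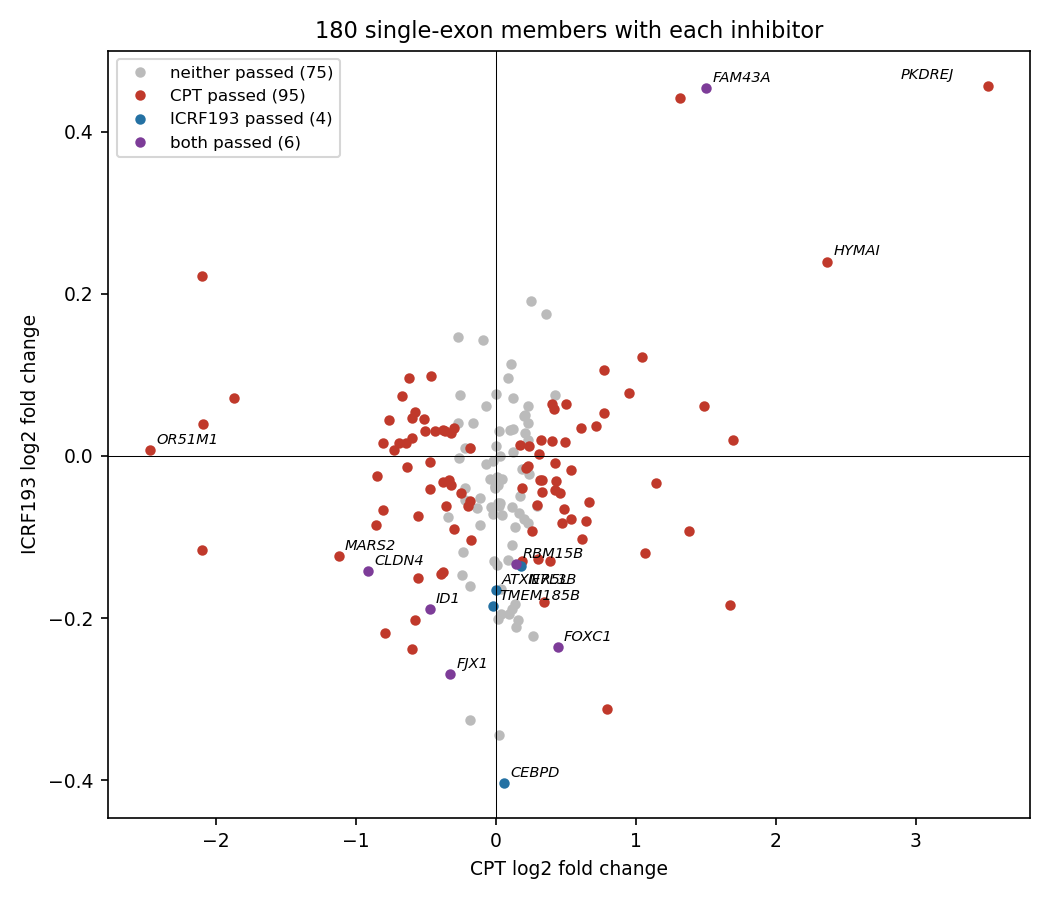
Log2 fold changes of the 180 members with CPT (x axis) and ICRF193 (y axis), coloured by which test passed at an adjusted p under 0.05. CPT values spread from -2.47 to 3.52, whereas ICRF193 values stay between -0.40 and 0.46; 95 members passed with CPT only, 4 with ICRF193 only, 6 with both and 75 with neither.

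TNFα for 1 h changed 2 members in the 3 WT pairs. *RHOB* was the 1 member raised and *ID1* the 1 lowered, beside 0.612% and 0.0281% of all 14226 genes tested. *RHOB* (chr2:20646832-20649204) went from 1927 to 2461 normalized counts without inhibitor, from 2381 to 2720.2 with CPT and from 1809 to 2464 with ICRF193 (log2 fold change 0.33, SE 0.05, adjusted p = 2.1e-04). It was higher at 1 h in all 3 pairs. *ID1* (chr20:30193086-30194317) went from 2648 to 1572 without inhibitor and from 2333 to 1518 with ICRF193, but from 1847 to 1951 with CPT, so that 2 of the 3 pairs fell (log2 fold change -0.43, SE 0.09, adjusted p = 0.0093).

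In p65-deficient cells, where TNFα coincides with a difference in depth for the libraries without inhibitor and with CPT and no test was made, *RHOB* went from 1799.5 to 2408, from 3634 to 3480.2 and from 1639 to 2315 without inhibitor, with CPT and with ICRF193. *ID1* went from 4912 to 3983, from 2729 to 2339.9 and from 4089.7 to 3365. The increase of *RHOB* without inhibitor and with ICRF193 was thus present in the p65-deficient libraries as well. The WT result rests on the pair term: with it dropped, no member passed edgeR's test (2 at an unadjusted p under 0.05), and DESeq2 called *RHOB* only. Without the CPT pair, 3 members were raised and 1 was lowered. Of the other members of the transcription factor list, *CEBPD* had the values 160 and 249 at 0 h and 1 h without inhibitor in WT cells and did not pass the test over the 3 pairs (log2 fold change 0.37, SE 0.10, adjusted p = 0.18).

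More members were higher than lower in the p65-deficient line. Of the 180, 49 were higher and 16 lower than in WT cells over the 6 pairs, beside 14.2% and 16% of all 14766 genes tested. The 49 include *OR51M1*, which reached the count minimum only through the p65-deficient libraries. Among the 166 members with a mean raw count of at least 50 in both lines, 48 were higher and 16 lower. The median log2 fold change, p65-deficient over WT, was 0.08 over the members and 0.00 over all genes tested. The direction was the same in all 6 pairs for 33 of the 49 and for 10 of the 16. Depth differed in the same direction, since 4 of the 6 p65-deficient libraries were shallow. With only the 2 pairs that hold no shallow library, 8 members were higher and none lower in edgeR's test (40 at an unadjusted p under 0.05), with the pair term dropped, 24 were higher and 3 lower, and with total-count normalization 55 were higher and 9 lower.

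*ID1* had lowest, median and highest normalized counts of 1519, 1899 and 2648 in WT and 2339.9, 3674 and 4912 in p65-deficient libraries (log2 fold change 0.84, SE 0.10, adjusted p = 2.3e-05). The ranges overlapped, yet each p65-deficient library was above its WT partner. *KLF14*, a Krüppel-like transcription factor, had 31.7, 38.7 and 57.3 and 62.9, 65.9 and 75.8, without overlap (log2 fold change 0.75, SE 0.15, adjusted p = 0.0015). The nested olfactory receptors were higher in p65-deficient cells as well, from 0.43 for *OR52D1* to 1.08 for *OR51M1*, whereas *OR51B4* (-0.11) and *OR51B2* (0.05) did not pass. In the pair with CPT at 1 h, *OR51I1* (32.1 in WT and 19.2 in p65-deficient cells) and *OR52D1* (86.8 and 80.3) went the other way. *OR51M1* had 8.31, 49.8 and 53.9 in WT and 15.7, 93.9 and 155 in p65-deficient libraries, and *OR51I2* had 32.8, 111 and 131 and 34.9, 215 and 302. In the 2 pairs without a shallow library, *OR51M1* (0.83, adjusted p = 0.18; mean raw count 48.2 in WT libraries, under the minimum), *OR51I2* (0.46, adjusted p = 0.31) and *KLF14* (0.62, adjusted p = 0.27) did not pass.

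All 3 Frizzled receptors were higher in p65-deficient cells (*FZD2* 0.55, *FZD1* 0.52 and *FZD7* 0.39). So were 5 of 15 transcription factors and co-regulators, among them *IER5L* (0.73) and *CEBPB* (0.44), while *EID1* (-0.19) was lower. *CLDN3* was higher (0.59), and *CLDN4* did not pass (0.04). Under the alternative fits, the calls of *FZD1* and *FZD7* were each lost in 2, those of *CEBPB* and *CLDN3* each in 1 and that of *EID1* in 4. The calls of *FZD2* and *IER5L* held in all 12. Of the members lowered, *EPM2AIP1*, which encodes a partner of laforin, had 118, 133 and 234 in WT and 89.1, 109 and 131 in p65-deficient libraries (log2 fold change -0.55, SE 0.12, adjusted p = 0.0033). *KCTD11*, an adaptor of a cullin ubiquitin ligase, had 88.3, 129 and 214 and 80.5, 93 and 129 (log2 fold change -0.40, SE 0.10, adjusted p = 0.0089). The ranges of both genes overlapped. Smaller decreases were found for *SF3B5* (-0.27), *UTP3* of the small subunit processome (-0.27) and *CCDC85B* (-0.26), each lower in all 6 pairs. None of the 5 lowered members named here passed in the 2 pairs without a shallow library, where the log2 fold changes were -0.76 for *EPM2AIP1* (adjusted p = 0.054), -0.30 for *KCTD11*, -0.34 for *UTP3*, -0.11 for *SF3B5* and -0.096 for *CCDC85B*. Those of *EPM2AIP1* and *UTP3* were thus no smaller than over all 6 pairs.

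The CPT effect differed between the cell lines for 24 members. It was more positive in p65-deficient cells for 8 and more negative for 16, beside 2.39% and 2.38% of all 14573 genes tested. For 8 of the 24, both WT pairs went one way and both p65-deficient pairs the other. *CEBPD* had CPT log2 ratios of -0.16 and -0.65 in the WT pairs at 0 h and 1 h and 0.53 and 0.71 in the p65-deficient pairs (difference 1.00, SE 0.18, adjusted p = 0.0036). *MESDC1* had -0.27 and -0.28 in the WT pairs at 0 h and 1 h and 0.47 and 0.24 in the p65-deficient pairs (difference 0.63, SE 0.12, adjusted p = 0.0039). These 2 genes were thus lower with CPT in WT cells and higher in p65-deficient cells. *ZCCHC3*, a nucleic acid-binding zinc finger protein gene, had -0.41 and -0.22 in the WT pairs at 0 h and 1 h and 0.53 and 0.19 in the p65-deficient pairs (difference 0.69, SE 0.14, adjusted p = 0.0067). *TBCC*, a tubulin folding cofactor, had -0.50 and -0.76 in the WT pairs at 0 h and 1 h and 0.18 and 0.05 in the p65-deficient pairs (difference 0.73, SE 0.14, adjusted p = 0.0056), so that it was lower in WT cells and little changed in p65-deficient cells. *SFN* had -0.01 and 0.13 in the WT pairs at 0 h and 1 h and 0.48 and 0.48 in the p65-deficient pairs (difference 0.40, SE 0.08, adjusted p = 0.0054).

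The test rests on 8 libraries with 2 residual degrees of freedom, and the p65-deficient pair at 1 h is shallow. DESeq2 called 1 member (21 at an unadjusted p under 0.05), which was *SFN*. For *CEBPD*, *MESDC1*, *TBCC* and *ZCCHC3* the adjusted p by DESeq2 was 0.071, 0.056, 0.096 and 0.086. With the pair term dropped, 6 members were called more positive and 2 more negative, and the 5 named above were among the 6.

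**Figure D5:**
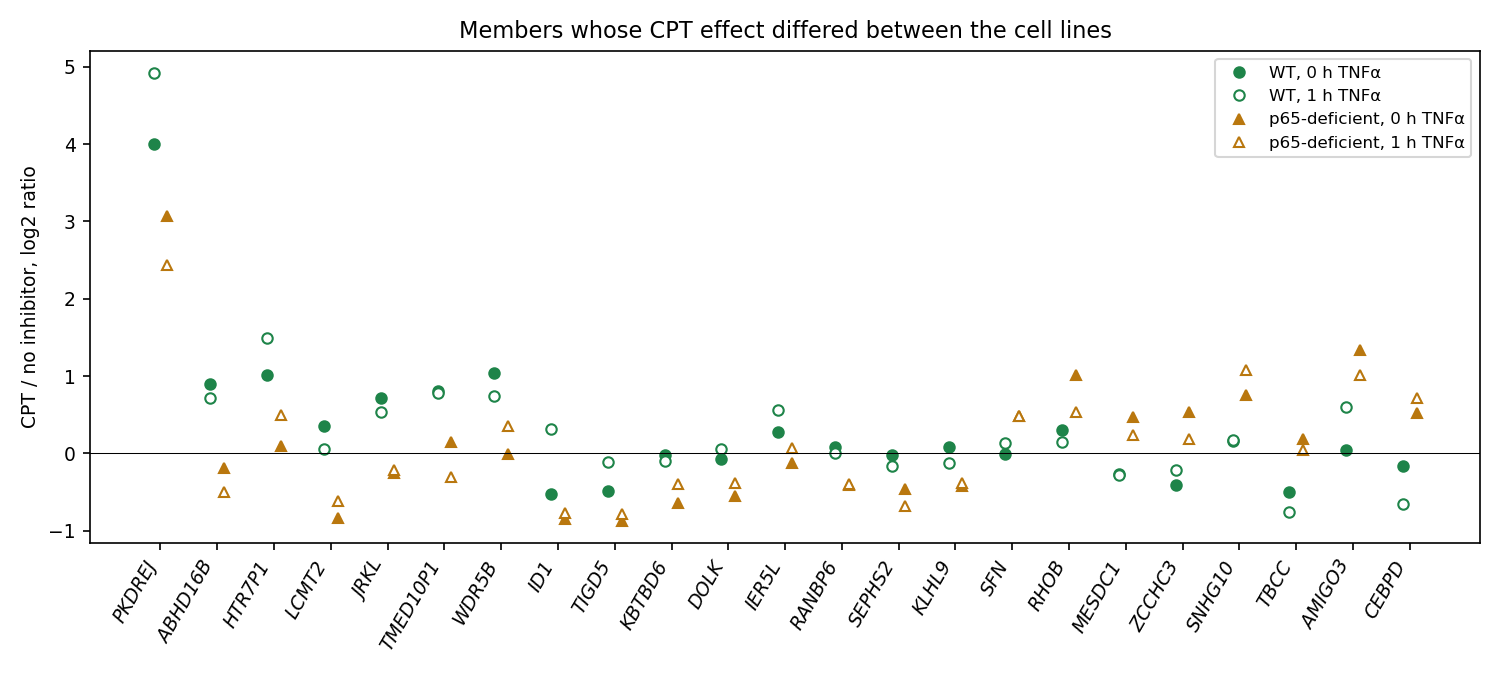
Log2 ratio of CPT over no inhibitor in each pair (1 library over 1 library) for 23 of the 24 members whose CPT effect differed between WT (circles) and p65-deficient cells (triangles), filled at 0 h and open at 1 h TNFα, ordered by the difference. The difference goes from -1.52 for *PKDREJ*, raised in all 4 pairs, to 1.00 for *CEBPD*, which lies below 0 in both WT pairs and above 0 in both p65-deficient pairs.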

How the data were processed

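RNA-seq of 12 HCT116 libraries (1 per condition) was analysed. The authors prepared libraries with a stranded total RNA kit, trimmed reads with Trimmomatic, and counted reads on the exons of hg19 gene symbols with featureCounts 1.5.0, without a strand setting and without reads on several genes or places. STAR is named in the submitters' processing notes. The deposited values are raw counts without normalization, between 8101212 and 22051046 per library, and the number of reads limits the precision of low genes.

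Members were found by the rule given above. The members, gene lists and tests were chosen with earlier results of these data known. Counts were tested with edgeR 4.0.16 (R 4.3.3; TMM normalization, filterByExpr, quasi-likelihood test, two-sided, Benjamini-Hochberg adjustment over all genes tested, adjusted p under 0.05) with the matched pair as a block. CPT and ICRF193 were tested in 4 pairs, TNFα in 3 WT pairs, cell line in 6 pairs, and the difference of the CPT effect as an interaction over 4 pairs. Replicate numbers in the labels do not pair samples; the pairs share cell line, inhibitor or TNFα time, and p-values measure the spread between these libraries. Normalized counts used size factors of DESeq2 1.42.0 over all libraries. Single-pair log2 ratios carry no test. The scripts were tested on simulated data. Alternatives were size factors, total counts, no filter, DESeq2, no block, each pair left out, all libraries in 1 fit and other member rules. Fits within WT, within p65-deficient and within the deeper pairs, and the difference without the block, were added after the data were seen.

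Named genes were the 10 members raised and the 10 lowered most by CPT, 5 and 5 for ICRF193 and cell line, 3 and 3 for TNFα (with 1 direction in all pairs), the 5 members with the smallest adjusted p for the difference, those at the edges of count and length, the 5 highest per kb and the members of the gene lists. *ID1* for TNFα, *OR51B4*, *OR51B2*, *PPAPDC2*, *ZBED6*, *IER5L*, *IRF2BPL*, *CREBZF*, *IRF2BP1*, *WDR5B*, *MCTS2P*, *PDIA3P1*, *DPH3P1*, *ACTL10*, *RBM15B* and *ATXN7L3B* were named after their values were seen. A few genes that these rules would name are not reported here. Other tools were Python 3.11.15, pandas 2.3.3, scipy 1.17.1 and matplotlib 3.10.9. Promoter windows came from RefSeq (GRCh38.p14) by symbol, and coordinates of genes are those of the deposited hg19 annotation.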

Additional observations from a re-analysis of the deposited data

Results flagged for a closer look

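The CPT effect of 24 members differed between WT and p65-deficient cells in a test of the difference itself (edgeR, adjusted p under 0.05); differences are on the log2 scale, p65-deficient minus WT. Among them, positive differences were found for *CEBPD* (1.00), *AMIGO3* (0.90), *TBCC* (0.73), *SNHG10* (0.69), *ZCCHC3* (0.69), *MESDC1* (0.63), *RHOB* (0.54), *SFN* (0.40). Negative differences included *PKDREJ* (-1.52), *ABHD16B* (-1.11), *HTR7P1* (-1.02), *LCMT2* (-0.99), *JRKL* (-0.88), *TMED10P1* (-0.84), *WDR5B* (-0.78), *ID1* (-0.72), *TIGD5* (-0.56), *KBTBD6* (-0.51), *DOLK* (-0.51), *IER5L* (-0.48), *RANBP6* (-0.47), *SEPHS2* (-0.46), *KLHL9* (-0.40). For *CEBPD*, *MESDC1*, *TBCC*, *ZCCHC3*, *LCMT2*, *ABHD16B*, *JRKL* and *RANBP6*, both pairs of 1 cell line lay above 0 and both of the other below it. *PKDREJ* and *HTR7P1* passed the count minimum only through the CPT libraries. The p65-deficient pair at 1 h TNFα is shallow in both libraries, and the part of depth in these differences was not tested.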

How the results depend on the processing

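Counts of members passing for CPT stayed within 1.5 times the values above under every alternative fit and count minimum tried (38 to 56 higher and 40 to 58 lower under the alternative fits to the same members), and 140 higher and 118 lower were found among 424 genes when the symbols dropped were kept in. For ICRF193 (1 higher, 9 lower), DESeq2 gave 0 and 1, all 12 libraries in 1 fit 0 and 0, no pair block 0 and 0, total counts 4 lower, and leaving out each pair 1 higher and 1 to 7 lower. For TNFα (1 and 1), DESeq2 gave 0 lower, no pair block 0 and 0, no low-count filter 3 higher, and leaving out each pair 1 to 3 higher and 1 lower. For the cell lines (49 and 16), no pair block gave 24 and 3, total counts 9 lower, the pairs without a shallow library 8 and 0, and leaving out each pair 37 to 58 and 9 to 19, with 9 lower without the pair without inhibitor at 0 h. For the difference of the CPT effect (8 and 16), DESeq2 gave 1 and 0 and no pair block 6 and 2. The block changed the CPT counts by less than 1.5 times. The median single-pair CPT log2 ratio of the members was 0.03, 0.06, 0.03 and 0.03; it moved with total counts to 0.053 in WT cells at 0 h and to -0.020 in p65-deficient cells at 1 h, and with size factors of only the 2 libraries to -0.0028, 0.039, -0.010 and -0.011. For 105 results of single members called changed in a comparison, none turned its direction under that comparison's alternatives, and 167 of 1071 values were no longer past the threshold. This does not cover members given as not passing. The causes were not tested. The depth of the 4 shallow libraries limits the low members, and single libraries per condition limit every test.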

Other observations

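Several of the members with a negative difference had CPT ratios well above 0 in both WT pairs and lower ones in the p65-deficient pairs. *HTR7P1*, a pseudogene of a serotonin receptor, had CPT log2 ratios of 1.02 and 1.50 in the WT pairs at 0 h and 1 h and 0.10 and 0.49 in the p65-deficient pairs. *WDR5B*, a retrocopy of the WD40 protein gene *WDR5*, had 1.04 and 0.75 in the WT pairs at 0 h and 1 h and -0.00 and 0.36 in the p65-deficient pairs. *ABHD16B*, an abhydrolase family gene, had 0.90 and 0.71 in the WT pairs at 0 h and 1 h and -0.18 and -0.50 in the p65-deficient pairs. *HTR7P1* had a mean raw count of 43.2 without CPT and passed the count minimum only through the CPT libraries. These genes were chosen after their values were seen.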
